A study of Arabidopsis thaliana with 27 samples.

Results

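The transcriptome of dividing Arabidopsis thaliana cells was compared 12 h after and just before their transfer into a medium that makes them form tracheary elements, the water pipes of xylem, which are left as hollow walls once the cell has died. The comparison takes 6 of the 27 arrays of the series, the 3 titled 12 h and the 3 titled 0 h, and sets each 12 h array against the 0 h array of the same time-course (A, B or C). At 12 h the cells had spent 12 h in fresh MS medium with B5 vitamins and sucrose to which 3 growth regulators had been added, the auxin NAA at 6 µg/ml, the cytokinin BAP at 1 µg/ml and the brassinosteroid epibrassinolide at 4 µM. At 0 h the cells were 7 days old and in the growth medium, which the protocol gives as MS with the same vitamins and sucrose. All 6 samples came from a habituated suspension culture of ecotype Col-0, a line of cells kept in liquid culture, and no whole tissue or second line is part of the comparison. The labels call the 0 h cells undifferentiated and actively dividing, and describe a loss of division with the first cell expansion at 12 h. Cells moved to fresh medium without the regulators were not analysed here, so the medium and the regulators cannot be told apart, nor either of them from culture age. In whole cultures, fewer cells of a type and less RNA per cell cannot be told apart either.

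Cells that divide need DNA replication, chromatin assembly and a spindle, and cells that grow need new ribosomes, a cytoskeleton that guides the wall, and enzymes that loosen and rebuild it. Ribosome production draws on RNA polymerase I for the large ribosomal RNAs, on RNA polymerase III for the small one and the transfer RNAs, and on nucleolar factors that cut and fold the precursors. Auxin and cytokinin switch on their own brakes within minutes to hours, among them enzymes that conjugate auxin and response regulators that dampen cytokinin signalling. Plant cells moved to a new medium or given reactive compounds also make glycosyltransferases, glutathione transferases and redox enzymes that bind or reduce such compounds.

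Each sample had 1 single-colour array, read as log2 signal, and the array medians of the 12 h samples were 0.90 to 0.94, those of the 0 h samples 0.91 to 0.99. Signals stop at a floor of 0, which between 538 and 851 values reached on the 12 h arrays and between 488 and 978 on the 0 h arrays, so a gene at the floor at either time changed by at least what is given. The platform annotation at hand names a single gene for 13513 of 22810 probe sets, and 13354 genes had a probe set of their own among those tested. The 3′ minus 5′ difference of a GAPDH control, a sign of lost transcript 5′ ends where it is large, was 1.05, 0.73 and 0.37 log2 units on the 12 h arrays A, B and C, and 0.53, 3.74 and 1.50 on the 0 h arrays. Among these 6 arrays the 0 h array of time-course B thus stood apart on this control. Counts that move by over 1.5 times without it are given as set out below. On the later B arrays of 60, 72, 84 and 96 h, which the fit also uses, the difference was 4.38, 3.29, 3.91 and 2.99. A second GAPDH control gave smaller differences at 0 h, 0.006, 0.945 and 0.596 in A, B and C. Of 9 marker genes of dividing cells 3 were measured and all 3 fell, their summed log2 signal being 5.2 to 6.2 at 12 h and 12 to 14 at 0 h. None of 14 tracheary element markers was among the named genes, so the identity of the cells as xylem precursors was not checked. Of 5 markers of photosynthetic cells 3 were measured, with summed signals of 4.8 to 7.5 at 12 h and 8.0 to 10.3 at 0 h. Only 1 of these 3, CaS, passed the test, and it fell. Of 3 markers of root epidermis 1 was measured, at 0.03 to 0.41 at 12 h and 0.20 to 0.61 at 0 h. The 1 measured of 6 phloem and procambium markers had 5.57 to 7.49 at 12 h and 3.70 to 5.90 at 0 h and did not pass the test.

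Of 22743 probe sets tested with limma, 4963 changed between 12 h and 0 h at a Benjamini-Hochberg adjusted p under 0.05 (21.8%), 2419 being higher at 12 h (10.6%) and 2544 lower (11.2%). In the fit without the pairing by time-course 3900 changed, 1929 higher and 1971 lower, and without array B of 0 h 4092 changed, 1916 higher and 2176 lower. The change was at least 2-fold for 1406 probe sets that rose and 1364 that fell, and at least 8-fold for 189 and 132. For 6413 probe sets (28.2%) the 3 signals at 12 h lay all above or all below the 3 at 0 h. Of the 4963 changed probe sets 4798 had 1 sign in A, B and C alike. Among the 13354 genes, 1303 rose (9.76%) and 1373 fell (10.3%), with a median difference of 0.00 log2 units, and these shares are the background for the gene groups below. Brackets after the count of a group hold its count in each fit that moves it by over 1.5 times, among the fits without the pairing, with the GAPDH difference as a covariate, without time-course B, or without 1 of the 6 arrays, named by time and letter. The shares depend on signal: among 4083 genes with a mean of at least 2 log2 units over all arrays 41.4% changed (20.0% up, 21.4% down), and 43.4% had times that did not overlap. Among the 9271 dimmer genes 5.23% rose and 5.40% fell, while 9.91% had all 3 signals at 12 h above those at 0 h and 9.31% had all 3 below. The shares over all genes are thus low for a group of mostly bright genes and high for a group of mostly dim ones. A gene is called dim below where its mean signal was under 2 log2 units both at 12 h and at 0 h. Nearly all genes named with values below were chosen among changed genes with 1 sign in A, B and C. A shared sign across the time-courses was thus a condition of being named and adds no support.

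**Figure D1:**
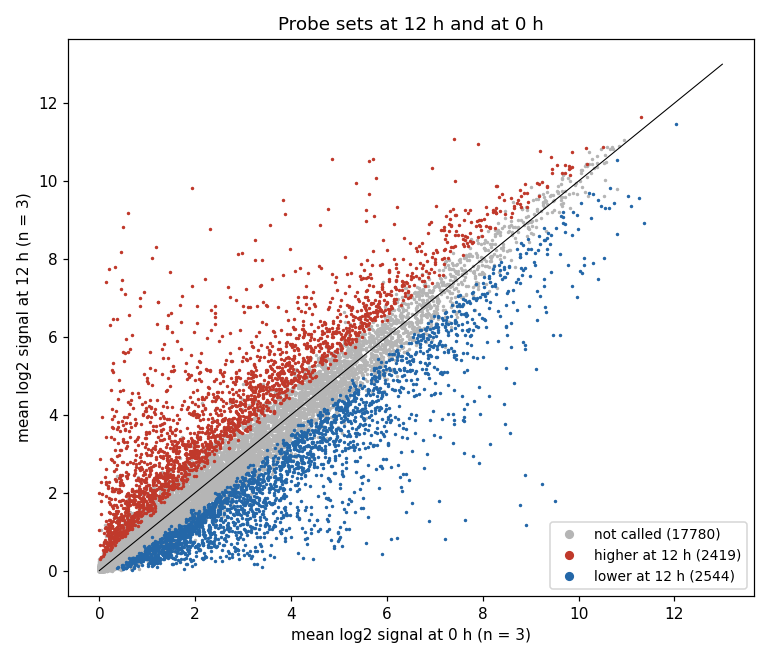
Mean log2 signal of each of 22743 probe sets at 12 h (vertical axis, n = 3 arrays) against its mean at 0 h (horizontal axis, n = 3), with the line of equal signal. The 2419 probe sets that rose lie above the line and the 2544 that fell below it, in similar numbers, and both reach from the floor to the bright end.

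**Figure D2:**
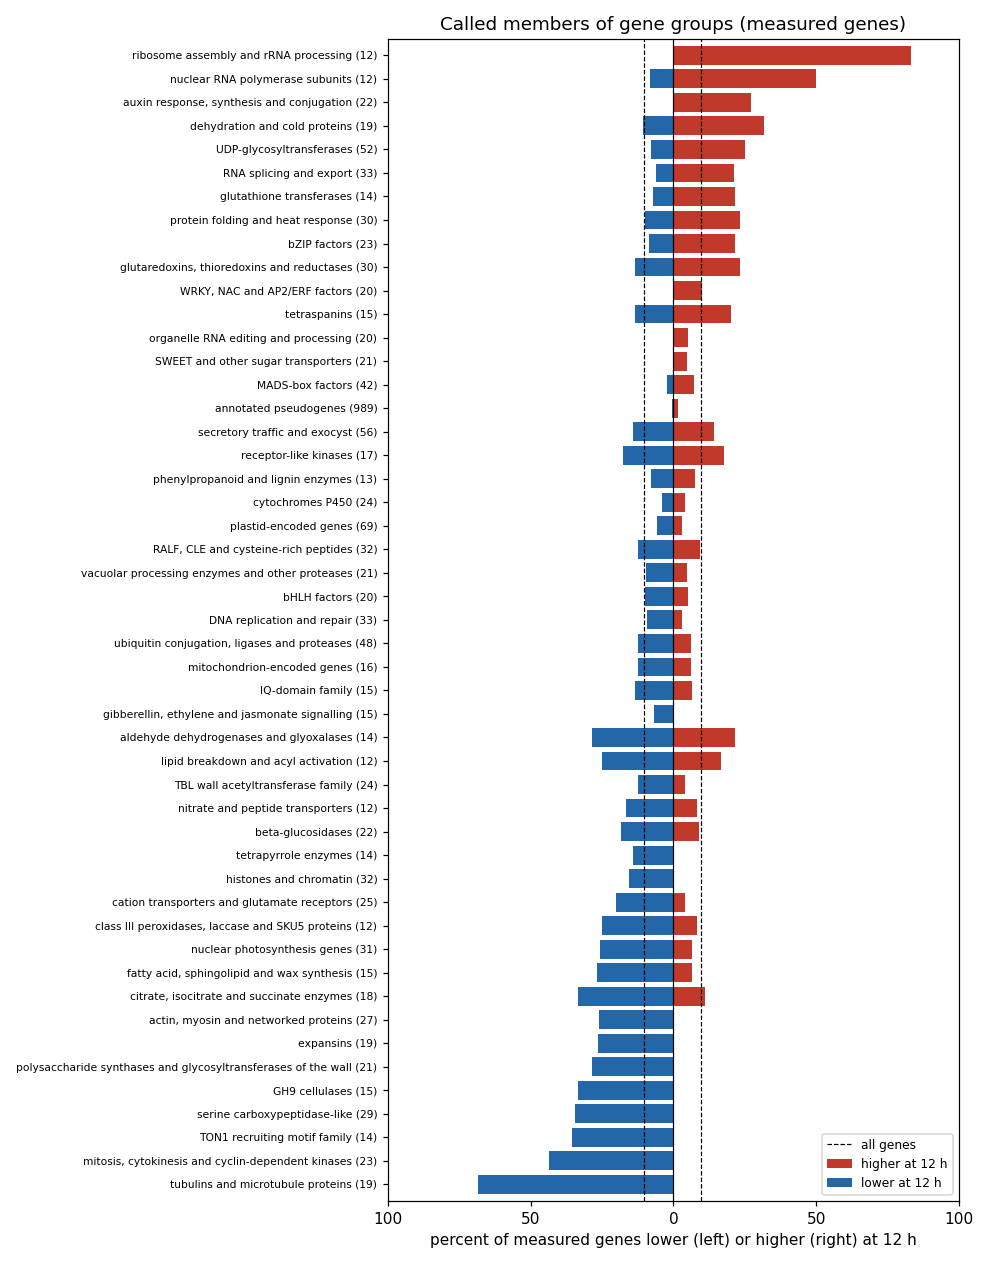
Percent of the measured genes of each group that were called (adjusted p under 0.05) lower (bars to the left) or higher (bars to the right) at 12 h than at 0 h, for the groups with at least 12 measured genes, whose number stands in brackets. The dashed lines mark the 9.76% and 10.3% of all genes, ribosome assembly and RNA polymerase genes stand at the upper end, and microtubule and mitosis genes at the lower end.

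Of 12 measured subunits of the nuclear RNA polymerases 6 rose and 1 fell, with a median difference of 0.84 log2 units (5 up and 0 down without time-course B, 6 up and 0 down without the pairing, 12 h B, 12 h C, 0 h A, 0 h B or 0 h C, 7 up and 0 down without 12 h A or with the covariate), against 9.76% and 10.3% and a median of 0.00 over all genes. Of the 12 subunits 2 were dim, and among genes with a mean of at least 2 log2 units 20.0% rose and 21.4% fell. NRPA2, the second-largest subunit of RNA polymerase I, had log2 signals of 5.38, 5.39 and 5.13 at 12 h, against 4.02, 3.96 and 3.48 at 0 h, a difference of 1.48 ± 0.23 (SE, n = 3 at each time, adjusted p = 6.86e-05). In each of the 3 time-courses the 12 h signal was the higher, and the 2 times did not overlap. The largest subunit of the same enzyme, NRPA1, had 3.80, 3.88 and 3.02 at 12 h, against 2.21, 2.42 and 1.79 at 0 h and rose by 1.43 ± 0.32 (adjusted p = 0.00215, but 0.06 without time-course B). In RNA polymerase III the second-largest subunit NRPC2 rose, having 3.90, 4.77 and 3.98 at 12 h, against 2.40, 3.06 and 2.84 at 0 h (1.45 ± 0.18, adjusted p = 5.55e-06). Its largest, NRPC1, rose by 1.03 ± 0.26 (adjusted p = 0.00624). Among small subunits NRPB12, which the nuclear polymerases share, rose by 1.63 ± 0.19 (adjusted p = 2.32e-06) and NRPB7, a subunit of RNA polymerase II, by 1.41 ± 0.28 (adjusted p = 9.46e-04). The member that fell was NRPD7, of the plant-specific polymerase that feeds RNA silencing, by 0.78 ± 0.26 (adjusted p = 0.0326). It was named after its value was seen, and its call was lost without the pairing (adjusted p = 0.148) and with any 1 of the 6 arrays left out (adjusted p = 0.0599 to 0.123).

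Of 12 measured genes of ribosome assembly and ribosomal RNA processing 10 rose and 0 fell, with a median difference of 1.23. In 11 of the 12 all 3 signals at 12 h lay above those at 0 h. Over all genes 9.76% rose, 10.3% fell and 13.3% had all 3 signals above. Of the 12 genes 0 were dim, and among genes with a mean of at least 2 log2 units 20.0% rose and 21.0% had all 3 signals above. This group was drawn up after its members' values were seen, so its count is a description and carries no weight as to its direction. The other groups were also chosen with earlier results of these data known, so their counts too are descriptions. PES, the pescadillo protein that large ribosomal subunits need, had 7.60, 7.14 and 7.16 at 12 h, against 6.22, 5.52 and 5.35 at 0 h, a rise of 1.60 ± 0.19 (adjusted p = 2.83e-06). YAO, a nucleolar protein of ribosomal RNA processing, had 5.50, 5.11 and 4.84 at 12 h, against 3.93, 3.23 and 3.25 at 0 h and rose by 1.68 ± 0.23 (adjusted p = 1.57e-05). AtNOB1, the endonuclease that trims the small subunit RNA, was the tightest of the group, with 5.26, 5.28 and 5.24 at 12 h, against 3.98, 4.18 and 3.85 at 0 h (1.25 ± 0.13, adjusted p = 3.81e-07). For all 3 genes the signals of the 2 times did not overlap. RRP41, a core subunit of the exosome that trims RNA, rose by 1.24 ± 0.22 (adjusted p = 2.48e-04), the nucleolar helicase PRH75 by 1.29 ± 0.26 (adjusted p = 0.0011) and PCN, a WD-repeat protein, by 1.30 ± 0.29 (adjusted p = 0.00237).

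Of 33 genes of pre-mRNA splicing and export 7 rose and 2 fell, at a median of 0.02 (4 up and 2 down without 0 h B, 5 up and 1 down without the pairing or 12 h C, 6 up and 1 down without time-course B or 12 h B or with the covariate, 8 up and 1 down without 0 h A). LSM1B and LSM6A, of the Sm-like rings that bind messenger and spliceosomal RNA, rose by 1.50 ± 0.26 (adjusted p = 2.50e-04) and 1.49 ± 0.25 (adjusted p = 1.82e-04). AtRZ-1c, a zinc-finger RNA-binding protein that works with splicing factors, had 5.89, 6.40 and 6.42 at 12 h, against 5.43, 4.67 and 4.84 at 0 h (1.25 ± 0.30, adjusted p = 0.00369). Among 20 genes of organelle RNA editing and processing 1 rose and 0 fell (1 up and 1 down without 0 h B, 2 up and 0 down with the covariate). It was CFM3A, a factor of intron splicing in plastids, which stood at 2.29, 2.55 and 2.09 at 12 h, against 0.74, 1.25 and 0.58 at 0 h (1.46 ± 0.12, adjusted p = 2.20e-08).

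Of 23 genes of mitosis, cytokinesis and cyclin-dependent kinases 10 fell and 0 rose, with a median of -0.61, and the median was negative in each time-course (0 up and 6 down without 0 h A, 1 up and 10 down without 12 h A). The Aurora kinases AUR1 and AUR2 led this group at -3.35 ± 0.29 and -2.87 ± 0.27 (adjusted p = 4.14e-08 and 1.76e-07). BUB3.1, a spindle checkpoint protein, had 3.71, 3.08 and 3.33 at 12 h, against 5.29, 4.33 and 4.76 at 0 h and fell by 1.42 ± 0.30 (adjusted p = 0.00132). TON1B, which builds the ring of microtubules that foretells the division plane, had 2.74, 1.76 and 1.90 at 12 h, against 4.17, 2.97 and 3.16 at 0 h (-1.30 ± 0.24, adjusted p = 3.70e-04); its 2 times overlapped nowhere. DNA replication and repair, with 33 genes, had 3 down and 1 up at a median of -0.14. These shares of 9.09% and 3.03% stand beside 10.3% and 9.76% of all genes. But 26 of the 33 genes were dim, and among genes with a mean under 2 log2 units 5.40% fell and 5.23% rose. The members that fell included TOPII, the topoisomerase that untangles sister chromosomes, with 0.89, 0.82 and 0.89 at 12 h, against 3.00, 4.05 and 3.02 at 0 h (-2.49 ± 0.32, adjusted p = 8.79e-06), and PRL, the MCM7 subunit of the replicative helicase, with -1.13 ± 0.20 (adjusted p = 2.58e-04). GYRB3, named after DNA gyrase, was the member that rose, with 4.83, 4.70 and 4.09 at 12 h, against 3.07, 3.02 and 2.93 at 0 h (1.53 ± 0.20, adjusted p = 9.14e-06). 

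Of 32 histones and chromatin proteins 5 fell and 0 rose (0 up and 3 down without 12 h C or 0 h C, 0 up and 8 down without 12 h A), with a median of -0.11. 3xHMG-box2, an HMG-box protein that sits on mitotic chromosomes, had 0.30, 1.74 and 0.40 at 12 h, against 4.88, 5.47 and 4.64 at 0 h (-4.18 ± 0.28, adjusted p = 1.54e-09). The histone HTB2 had 8.22, 6.73 and 6.40 at 12 h, against 8.48, 8.44 and 8.62 at 0 h, so that time-course A fell by much less than B and C, and its difference was -1.40 ± 0.34 (adjusted p = 0.00405, but 0.0734 without time-course B). HON4, a relative of linker histones, fell by 1.12 ± 0.22 (adjusted p = 6.08e-04). Ubiquitin enzymes gave 3 up and 6 down of 48, near the background (1 up and 4 down without time-course B, 2 up and 3 down without the pairing). Among them UBC20, an E2 enzyme known from dividing cells, fell by 2.52 ± 0.29 (adjusted p = 2.05e-06). ATL8, a RING-finger protein, fell by 2.24 ± 0.32 (adjusted p = 2.60e-05). The ubiquitin protease UBP18 rose by 1.74 ± 0.24 (adjusted p = 1.83e-05). SKP2A, an F-box protein that marks cell cycle regulators for destruction, had 2.18, 3.87 and 3.56 at 12 h, against 1.60, 2.15 and 2.32 at 0 h (1.18 ± 0.28, adjusted p = 0.00359, but 0.13 without time-course B).

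Tubulins and microtubule proteins had the largest share of falling genes of the 64 groups counted in the paired fit of all arrays. Of 19 such genes 13 fell and 0 rose, 68.4% against the 10.3% of all genes, with a median of -1.02 and medians of -0.87, -0.84 and -0.71 in time-courses A, B and C. Of the 19 genes 6 were dim, and among genes with a mean of at least 2 log2 units 21.4% fell. The count of falls in the group was 9 without the pairing and 8 without 12 h B. SPR1, which binds microtubules and keeps cell elongation straight, had 6.68, 6.89 and 6.88 at 12 h, against 8.66, 8.44 and 8.35 at 0 h (-1.66 ± 0.17, adjusted p = 3.45e-07). Its relative SP1L3 had 5.92, 5.72 and 5.92 at 12 h, against 7.43, 7.62 and 7.94 at 0 h and fell by 1.81 ± 0.17 (adjusted p = 1.44e-07). Neither gene's 12 h signals reached those at 0 h. The beta-tubulins TUB5 and TUB6 fell by 3.73 ± 0.41 and 1.57 ± 0.17 (adjusted p = 1.07e-06 and 7.74e-07). Of 14 proteins with the TON1 recruiting motif, which link microtubules and the division machinery, 5 fell and 0 rose (0 up and 3 down without time-course B). TRM21 had 1.04, 1.31 and 1.00 at 12 h, against 2.37, 4.12 and 2.98 at 0 h (-2.04 ± 0.27, adjusted p = 1.04e-05) and TRM19 with -1.09 ± 0.18 (adjusted p = 1.18e-04). The IQ-domain family, calmodulin-binding proteins that sit partly on microtubules, had 1 rise and 2 falls among 15 members (3 up and 2 down without 0 h C). IQD28 and IQD30 fell by 1.43 ± 0.15 and 1.57 ± 0.31 (adjusted p = 7.14e-07 and 8.17e-04). IQD22 rose by 1.47 ± 0.24 (adjusted p = 1.12e-04).

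On the actin side 7 of 27 genes fell and 0 rose, with a median of -0.14 (0 up and 4 down without the pairing). SPK1, the exchange factor that activates ROP GTPases and so shapes growing cells, had 0.94, 1.18 and 1.30 at 12 h, against 2.96, 4.32 and 3.71 at 0 h (-2.52 ± 0.23, adjusted p = 1.15e-07). ACT11, an actin, had 3.16, 1.70 and 2.52 at 12 h, against 4.95, 4.04 and 4.89 at 0 h (-2.17 ± 0.28, adjusted p = 6.79e-06). WLIM2a, which bundles actin filaments, fell by 1.71 ± 0.33 (adjusted p = 5.48e-04). Both genes were lower at 12 h in every time-course. Of 56 genes of secretory traffic and exocyst 8 rose and 8 fell, each at 14.3% (2 up and 6 down without time-course B, 5 up and 4 down without the pairing, 5 up and 7 down with the covariate, 7 up and 3 down without 12 h C, 7 up and 4 down without 12 h B or 0 h A, 8 up and 5 down without 0 h C). Of these 56 genes 12 were dim, and among genes with a mean of at least 2 log2 units 20.0% rose and 21.4% fell.

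**Figure D3:**
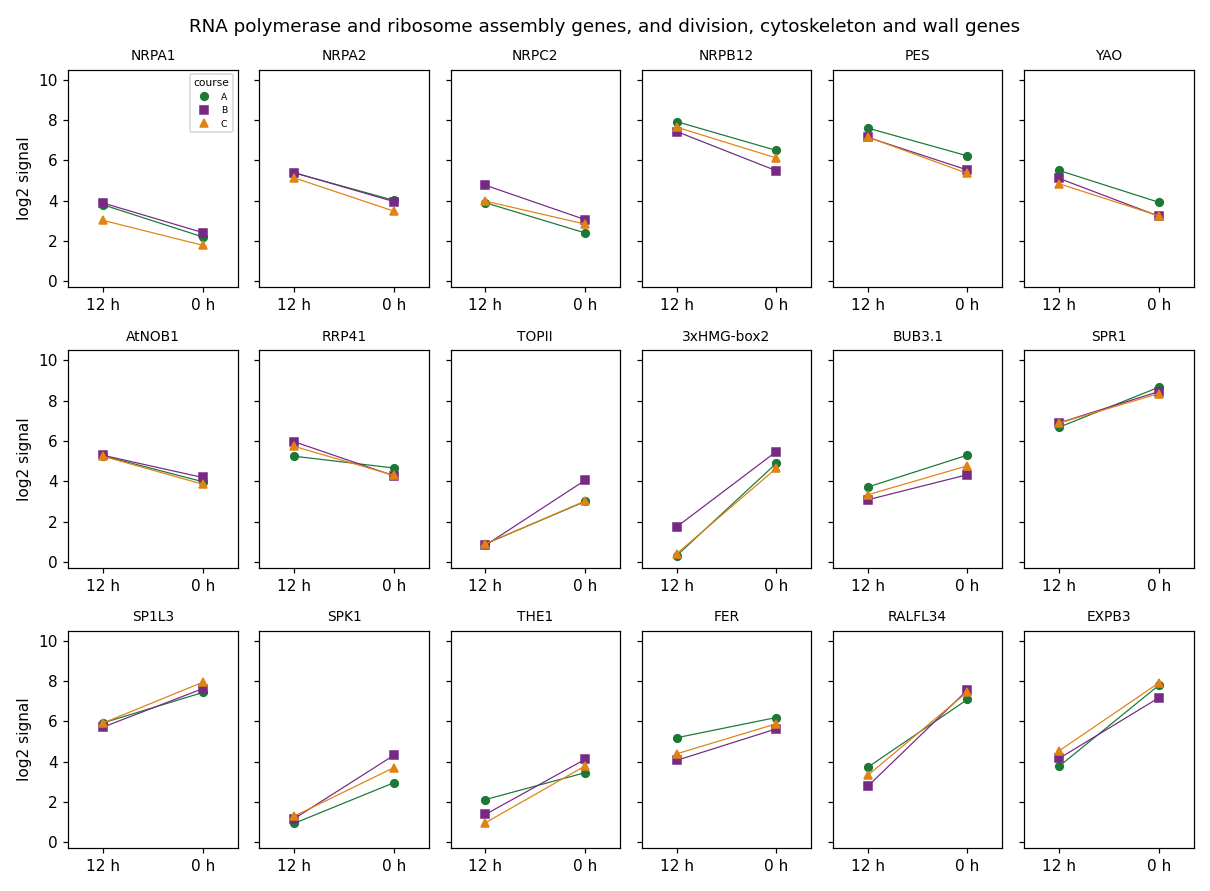
Log2 signal at 12 h (left in each panel) and at 0 h (right) in time-courses A, B and C, joined by course, for 18 genes. NRPA1 to RRP41 were higher at 12 h in each course, while TOPII to EXPB3 were lower at 12 h in each.

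The label of the 12 h samples names the start of cell expansion, and several genes of wall loosening were lower at 12 h. Of 19 expansins, which loosen the wall as cells enlarge, 5 fell and 0 rose at a median of -0.12 (0 up and 3 down without time-course B). EXPB3 had 3.77, 4.16 and 4.54 at 12 h, against 7.78, 7.16 and 7.90 at 0 h (-3.46 ± 0.36, adjusted p = 5.20e-07). EXLA3 had 2.16, 1.43 and 1.75 at 12 h, against 5.07, 5.60 and 5.09 at 0 h (-3.48 ± 0.42, adjusted p = 3.45e-06). EXPA20 had 3.36, 2.27 and 2.78 at 12 h, against 5.71, 5.42 and 5.01 at 0 h (-2.58 ± 0.40, adjusted p = 7.15e-05). In all 3 expansins every 12 h signal lay below every 0 h signal. Of 10 xyloglucan endotransglucosylases 3 fell (XTH16, XTH19 and XTH32, by 3.90 ± 0.21, 4.16 ± 0.67 and 3.91 ± 0.68) and 1 rose, EXGT-A3, with 9.86, 9.26 and 8.93 at 12 h, against 6.92, 7.28 and 6.87 at 0 h (2.32 ± 0.26, adjusted p = 1.12e-06). These enzymes cut and rejoin xyloglucan chains, so members of 1 family moved in opposite directions. Of 15 GH9 cellulases 5 fell and 0 rose. GH9B7 was the most uniform of them, with 4.75, 4.56 and 4.62 at 12 h, against 6.50, 6.54 and 6.62 at 0 h (-1.91 ± 0.09, adjusted p = 9.45e-12).

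Of 21 polysaccharide synthases and glycosyltransferases of the wall 6 fell and 0 rose, at a median of -0.30 (0 up and 3 down without the pairing). IRX15-L, which acts in xylan synthesis, had 1.47, 0.88 and 1.14 at 12 h, against 4.34, 4.72 and 4.36 at 0 h (-3.31 ± 0.24, adjusted p = 4.28e-09). COB, the anchored protein that orients cellulose deposition, had 5.50, 4.50 and 4.35 at 12 h, against 6.55, 6.20 and 6.88 at 0 h (-1.76 ± 0.29, adjusted p = 1.32e-04). For neither gene did the signals of the 2 times overlap. The 24 members of the TBL family, which acetylates wall polysaccharides, had 1 up and 3 down (0 up and 2 down without the pairing, 12 h B or 0 h C, 0 up and 3 down without time-course B, 12 h A or 0 h B, 0 up and 4 down without 0 h A, 2 up and 3 down with the covariate). TBL39 and TBL36 fell by 2.95 ± 0.39 and 2.93 ± 0.29 (adjusted p = 1.09e-05 and 3.37e-07). Among 12 peroxidases, laccases and SKU5 proteins 3 fell and 1 rose. PRXR1, a peroxidase, had 1.59, 2.57 and 2.84 at 12 h, against 6.85, 5.29 and 7.26 at 0 h (-4.13 ± 0.35, adjusted p = 3.36e-08). AtPRX25, of the same family, fell by 3.35 ± 0.43 (adjusted p = 6.94e-06). SKU5, a cupredoxin-like protein of directional root growth, fell by 1.63 ± 0.34 (adjusted p = 0.00128).

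Some receptors and peptides that report on the state of the wall were also lower at 12 h. THE1, a receptor kinase that senses damage to cellulose, had 2.12, 1.39 and 0.97 at 12 h, against 3.46, 4.12 and 3.79 at 0 h (-2.29 ± 0.36, adjusted p = 7.32e-05). FER, its relative and a receptor for RALF peptides, had 5.19, 4.07 and 4.39 at 12 h, against 6.19, 5.63 and 5.88 at 0 h (-1.35 ± 0.20, adjusted p = 4.83e-05). No 12 h signal of either receptor reached the 0 h range. The peptide gene RALFL34 had 3.73, 2.78 and 3.33 at 12 h, against 7.09, 7.56 and 7.46 at 0 h (-4.09 ± 0.43, adjusted p = 5.91e-07). RALFL24 and RALFL31 fell by 1.82 ± 0.22 and 1.25 ± 0.21 (adjusted p = 3.06e-06 and 1.58e-04). RALFL33 went the other way, with 8.97, 8.31 and 8.45 at 12 h, against 7.40, 7.45 and 8.16 at 0 h (0.90 ± 0.21, adjusted p = 0.00388). Over the whole group of 32 RALF, CLE and cysteine-rich peptides 3 rose and 4 fell, shares of 9.38% and 12.5% near the background (1 up and 4 down without time-course B). Of 17 receptor-like kinases 3 rose and 3 fell (1 up and 2 down without time-course B). BIK1, a kinase behind immune receptors, was one that rose, with 5.60, 5.17 and 4.98 at 12 h, against 3.93, 3.85 and 4.25 at 0 h (1.24 ± 0.26, adjusted p = 0.00133).

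The serine carboxypeptidase-like family had 10 falls and 0 rises among 29 genes, 34.5% against 10.3%, at a median of -0.07, and 17 of the 29 were dim. SCPL34 had 0.44, 0.56 and 0.32 at 12 h, against 4.90, 4.34 and 3.22 at 0 h (-3.71 ± 0.45, adjusted p = 3.84e-06). SCPL45 had 3.18, 3.90 and 3.40 at 12 h, against 5.93, 6.79 and 5.77 at 0 h (-2.67 ± 0.20, adjusted p = 6.18e-09). The 12 h signals of both lay apart from those at 0 h. The genes scpl29 and scpl35 fell by 1.96 ± 0.29 and 2.01 ± 0.33 (adjusted p = 4.89e-05 and 1.40e-04). Of 9 subtilases 1 rose and 2 fell (1 up and 0 down without the pairing, time-course B, 12 h A, 12 h C or 0 h A, 1 up and 1 down without 12 h B, 0 h B or 0 h C or with the covariate). The riser was SBT3.5, with 1.99, 1.81 and 2.33 at 12 h, against 0.73, 0.97 and 0.61 at 0 h (1.27 ± 0.17, adjusted p = 9.56e-06). Among 21 vacuolar processing enzymes, other proteases and protease inhibitors 1 rose and 2 fell (1 up and 1 down without the pairing, time-course B, 12 h B, 12 h C or 0 h A). One of those that fell was CYS1, an inhibitor of cysteine proteases, with 6.96, 6.89 and 6.90 at 12 h, against 7.81, 7.58 and 7.75 at 0 h (-0.80 ± 0.15, adjusted p = 5.19e-04), and the riser was the methionine aminopeptidase MAP1A (1.19 ± 0.20, adjusted p = 1.28e-04). Of 11 autophagy genes 2 rose and 1 fell (2 up and 2 down without 0 h A). ATG8B and ATG8D rose by 1.67 ± 0.19 and 1.67 ± 0.17 while ATG8F fell by 1.50 ± 0.27 (adjusted p = 1.36e-06, 3.00e-07 and 2.67e-04).

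Of 52 UDP-glycosyltransferases 13 rose (25.0%) and 4 fell (7.69%) (11 up and 1 down without time-course B, 11 up and 2 down without 12 h B or 12 h C, 12 up and 2 down without 0 h A). At least 8-fold rises were seen in 6 of them. IAGLU, which joins glucose to auxin, had 7.21, 6.52 and 6.67 at 12 h, against 0.76, 0.91 and 0.89 at 0 h, a difference of 5.94 ± 0.17 (adjusted p = 3.76e-15). UGT87A2 had 6.62, 6.54 and 7.25 at 12 h, against 2.25, 1.94 and 3.08 at 0 h (4.38 ± 0.24, adjusted p = 9.73e-11). UGT73B5, which responds to pathogens and oxidants, had 5.01, 4.51 and 4.39 at 12 h, against 0.54, 0.34 and 0.62 at 0 h (4.13 ± 0.15, adjusted p = 1.59e-13). Each of the 3 was several log2 units higher at 12 h in every time-course. GT72B1, which conjugates phenolic pollutants and lignin precursors, rose by 3.61 ± 0.37 (adjusted p = 4.46e-07). Of 14 glutathione transferases 3 rose and 1 fell, GSTU22 and GSTU25 by 8.33 ± 0.33 and 7.14 ± 1.02, and GSTL3 at -1.12 ± 0.22 (adjusted p = 4.15e-13, 2.61e-05 and 6.71e-04). Of 24 cytochromes P450, the other large family of detoxification, 1 rose and 1 fell, 4.17% each (0 up and 1 down without time-course B, 1 up and 0 down without 0 h C), and 23 of the 24 were dim.

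The beta-glucosidases, which release sugar from stored conjugates, moved in both directions, with 2 of 22 up and 4 down (2 up and 2 down without time-course B or 12 h B). BGLU28 had 5.37, 7.33 and 6.68 at 12 h, against 0.00, 0.73 and 0.39 at 0 h (6.09 ± 0.39, adjusted p = 7.44e-10). BGLU25 had 8.47, 5.88 and 6.06 at 12 h, against 2.22, 2.20 and 1.67 at 0 h (4.77 ± 0.47, adjusted p = 3.37e-07). BGLU44 had 1.15, 0.42 and 0.86 at 12 h, against 3.84, 4.04 and 4.99 at 0 h and fell by 3.48 ± 0.23 (adjusted p = 1.03e-09). All 3 genes kept the 2 times apart, in opposite senses.

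Of 30 glutaredoxins, thioredoxins and reductases 7 rose and 4 fell (7 up and 2 down without 0 h A or 0 h C). AER, a reductase of reactive carbonyls that arise from oxidised lipids, had 9.80, 9.07 and 8.99 at 12 h, against 4.23, 5.36 and 4.74 at 0 h (4.51 ± 0.34, 22.8-fold, adjusted p = 7.67e-09). GRX480, a glutaredoxin of defence signalling, had 2.89, 3.01 and 3.40 at 12 h, against 0.57, 0.46 and 0.34 at 0 h (2.64 ± 0.14, adjusted p = 7.15e-11). SRX, which repairs overoxidised peroxiredoxins, had 3.71, 4.16 and 4.12 at 12 h, against 1.54, 2.23 and 2.47 at 0 h (1.92 ± 0.24, adjusted p = 4.53e-06). The rise was present in each time-course for all 3. The stromal ascorbate peroxidase SAPX rose by 1.53 ± 0.16 (adjusted p = 4.21e-07), the glutathione reductase GR1 by 1.22 ± 0.22 (adjusted p = 3.53e-04) and the plastid thioredoxin TY1 by 1.31 ± 0.23 (adjusted p = 2.72e-04). Of 14 aldehyde dehydrogenases and glyoxalases 3 rose and 4 fell. ALDH7B4, an aldehyde dehydrogenase of drought and salt stress, had 5.96, 5.70 and 5.59 at 12 h, against 3.94, 4.04 and 4.05 at 0 h (1.74 ± 0.22, adjusted p = 6.92e-06), whereas ALDH10A9 had 4.88, 4.40 and 4.66 at 12 h, against 6.31, 6.11 and 6.03 at 0 h (-1.50 ± 0.11, adjusted p = 3.91e-09) and its relative ALDH10A8 fell by 1.53 ± 0.22 (adjusted p = 2.52e-05). FDH, the formate dehydrogenase of mitochondria, had 5.92, 6.87 and 7.10 at 12 h, against 4.19, 3.56 and 5.14 at 0 h (2.33 ± 0.31, adjusted p = 1.13e-05). Of 7 alternative NAD(P)H dehydrogenases and cytochrome c genes 2 rose and 0 fell (2 up and 1 down without 12 h A or 0 h C). NDB2, an external dehydrogenase that bypasses proton pumping, had 6.68, 6.83 and 6.86 at 12 h, against 3.61, 2.55 and 2.83 at 0 h (3.79 ± 0.26, adjusted p = 1.80e-09), and CYTC-2, a cytochrome c, rose by 2.0 ± 0.26 (adjusted p = 7.13e-06).

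**Figure D4:**
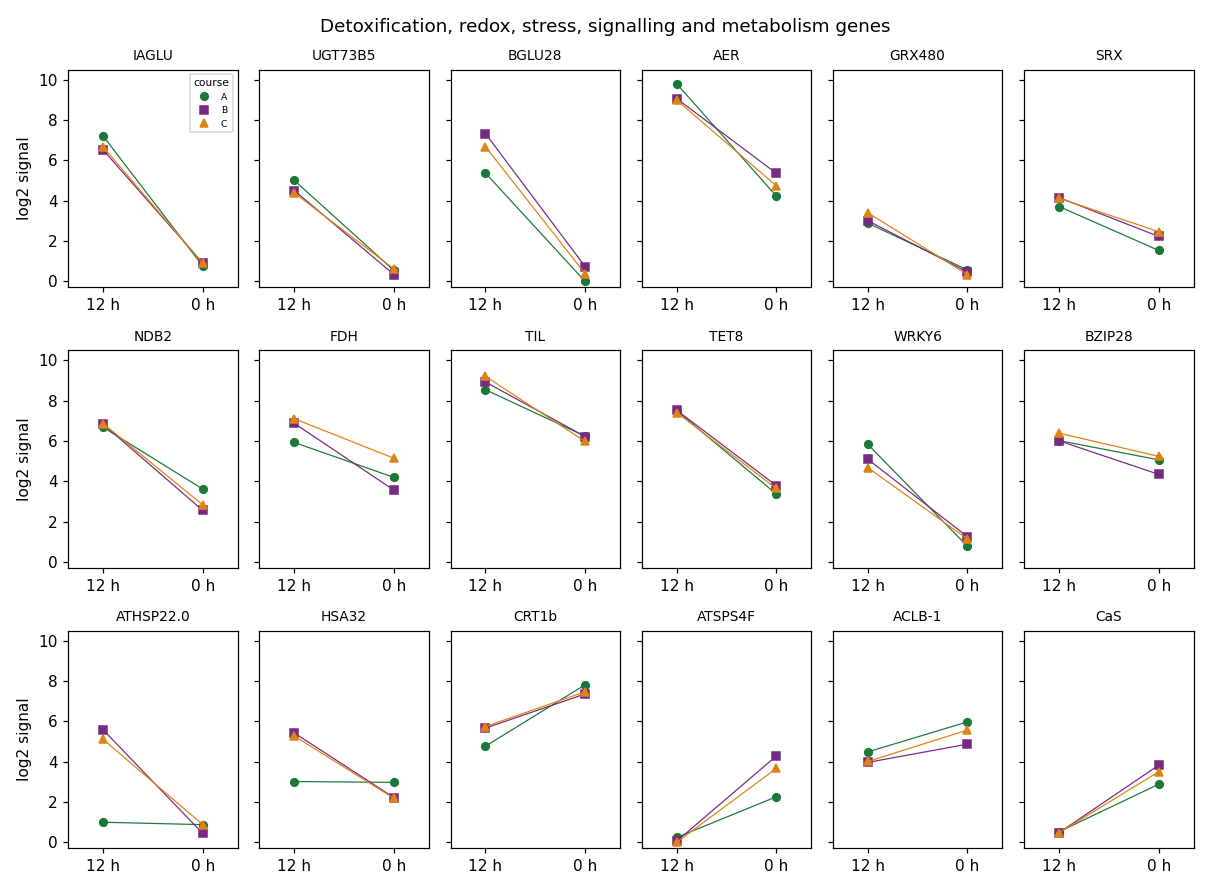
Log2 signal at 12 h (left in each panel) and at 0 h (right) in time-courses A, B and C, joined by course, for 18 genes. IAGLU to BZIP28 were higher at 12 h in each course, ATHSP22.0 and HSA32 rose in B and C while A stayed nearly level, and CRT1b to CaS were lower at 12 h in each.

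Of 19 dehydration and cold proteins 6 rose and 2 fell, at a median of 0.08, so a few large rises stood among members near 0. TIL, a lipocalin of membrane protection, had 8.54, 8.92 and 9.20 at 12 h, against 6.24, 6.21 and 5.97 at 0 h (2.75 ± 0.20, adjusted p = 5.01e-09). SRC2, a cold-induced protein with a C2 domain, had 9.25, 8.86 and 9.46 at 12 h, against 7.98, 7.24 and 7.89 at 0 h (1.49 ± 0.26, adjusted p = 2.51e-04). LEA4-5 and the dehydrin LTI30 rose by 3.89 ± 0.43 and 6.94 ± 0.32 (adjusted p = 1.22e-06 and 6.22e-12). LEA26, another protein named as late embryogenesis abundant, had 6.39, 5.15 and 5.43 at 12 h, against 7.47, 6.89 and 7.45 at 0 h and fell by 1.61 ± 0.24 (adjusted p = 5.27e-05). Of 30 protein folding and heat genes 7 rose and 3 fell (3 up and 1 down without time-course B, 7 up and 1 down without the pairing). ATHSP22.0, a small heat shock protein of the endoplasmic reticulum and the measured marker of stressed cells, had 1.00, 5.58 and 5.11 at 12 h, against 0.88, 0.44 and 0.88 at 0 h (3.16 ± 0.75, adjusted p = 0.00367). HSA32, which preserves acquired heat tolerance, had 3.02, 5.43 and 5.28 at 12 h, against 2.98, 2.22 and 2.19 at 0 h (2.11 ± 0.49, adjusted p = 0.00329). Both genes were several-fold higher at 12 h in time-courses B and C and nearly level in A, so the mean difference describes no single course, and without time-course B the calls were lost (adjusted p = 0.208 and 0.197). Among chaperones of the endoplasmic reticulum CRT1b, a calreticulin, had 4.77, 5.67 and 5.74 at 12 h, against 7.82, 7.36 and 7.47 at 0 h (-2.15 ± 0.19, adjusted p = 5.76e-08). BZIP28 and BZIP60, the factors that switch on such chaperones when proteins misfold there, rose by 1.25 ± 0.21 and 1.03 ± 0.23 (adjusted p = 1.56e-04 and 0.00221).

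Genes of auxin and cytokinin response were among those that rose. Of 22 genes of auxin response, synthesis and conjugation 6 rose and 0 fell, 27.3% against 9.76%, at a median of 0.06. Of the 6 that rose 5 had 1 sign in A, B and C, and 16 of the 22 genes were dim. GH3.3, which conjugates auxin to amino acids, rose by 6.14 ± 0.22 (adjusted p = 1.06e-13) beside IAGLU. HAT2, an auxin-induced homeodomain factor, had 6.86, 6.97 and 6.84 at 12 h, against 4.34, 4.73 and 5.36 at 0 h (2.08 ± 0.19, adjusted p = 1.14e-07). The Aux/IAA repressors IAA18 and IAA30 had 4.44, 2.52 and 2.94 at 12 h, against 1.09, 0.99 and 1.43 at 0 h and 4.66, 2.64 and 2.35 at 12 h, against 0.52, 1.29 and 0.62 at 0 h, differences of 2.13 ± 0.28 and 2.41 ± 0.60 (adjusted p = 9.64e-06 and 0.00523), with time-course A the highest at 12 h for both. Of 6 response regulators of the cytokinin pathway ARR15 rose, by 2.21 ± 0.25 (adjusted p = 1.60e-06), and 0 fell (1 up and 1 down without 0 h A). Gibberellin, ethylene and jasmonate signalling gave 0 rises and 1 fall among 15 genes (0 up and 2 down without time-course B or 0 h B, 0 up and 3 down without 0 h A, 1 up and 4 down with the covariate). That gene was the gibberellin receptor GID1A, with 1.04, 0.83 and 0.57 at 12 h, against 3.13, 1.39 and 2.75 at 0 h (-1.61 ± 0.27, adjusted p = 1.37e-04); its 12 h array of A and its 0 h array of B came closest. BIM1, a bHLH factor that works with the main brassinosteroid factor, had 0.67, 0.78 and 0.82 at 12 h, against 1.97, 3.18 and 2.04 at 0 h (-1.64 ± 0.27, adjusted p = 1.24e-04).

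Families of transcription factors differed in their counts, and these differences were not tested. Of 23 bZIP factors 5 rose (21.7%) and 2 fell (2 up and 1 down without time-course B, 4 up and 1 down without 12 h C or 0 h A or with the covariate). The 42 MADS-box genes had 3 up and 1 down (1 up and 1 down without 12 h B or 0 h B, 5 up and 1 down with the covariate). The 20 bHLH factors had 1 up and 2 down (1 up and 1 down without 12 h A or 0 h C, 2 up and 2 down with the covariate), and the 20 WRKY, NAC and AP2/ERF factors 2 and 0 (2 up and 1 down without 0 h A or with the covariate). The 10 B3 factors had 0 up and 0 down with limma (0 up and 1 down without time-course B or 0 h B, 1 up and 0 down without 12 h A), and 2 had an unadjusted p under 0.05. In the last 4 families between 75.0% and 92.9% of the genes were dim. Both WRKY-family rises were large. WRKY6, a factor of senescence and defence, had 5.83, 5.09 and 4.67 at 12 h, against 0.77, 1.25 and 1.13 at 0 h (4.14 ± 0.42, adjusted p = 3.81e-07). WRKY22, a factor of immune signalling, had 4.29, 4.14 and 4.23 at 12 h, against 1.16, 1.12 and 0.81 at 0 h (3.19 ± 0.22, adjusted p = 2.01e-09). The bHLH factor SPT, known from carpels and from restrained leaf growth, rose by 1.38 ± 0.24 (adjusted p = 1.98e-04), and the bZIP factor bZIP44 by 1.42 ± 0.33 (adjusted p = 0.00352, but 0.151 without time-course B). Of 15 tetraspanins, membrane proteins that gather others into patches, TET8, TET3 and TET5 rose and TET10 and TET7 fell. TET8, known from extracellular vesicles, had 7.50, 7.52 and 7.41 at 12 h, against 3.37, 3.79 and 3.64 at 0 h (3.88 ± 0.26, adjusted p = 1.38e-09). TET10 had 5.71, 3.62 and 4.23 at 12 h, against 6.60, 7.15 and 7.01 at 0 h (-2.40 ± 0.36, adjusted p = 4.40e-05). The 2 genes moved in opposite directions, each with no overlap between 12 h and 0 h. CML42, a calmodulin-like protein of wounding and insect defence, rose by 1.43 ± 0.33 (adjusted p = 0.00331, but 0.167 without time-course B).

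Of 18 genes of citrate, isocitrate and succinate enzymes 6 fell (33.3%) and 2 rose (11.1%) (1 up and 4 down without time-course B, 2 up and 3 down without 12 h C). Of these 18 genes 2 were dim. ACLB-1, the subunit of the enzyme that makes cytosolic acetyl-CoA from citrate, had 4.49, 3.97 and 4.01 at 12 h, against 5.98, 4.87 and 5.57 at 0 h (-1.32 ± 0.19, adjusted p = 3.71e-05). The malate dehydrogenase MDH rose by 1.00 ± 0.21 (adjusted p = 0.00128). Of 7 glycolysis and fermentation genes 3 fell and 0 rose (1 up and 2 down without 12 h C, 1 up and 3 down without 0 h A). TPI, the triose phosphate isomerase, had 9.59, 9.30 and 9.45 at 12 h, against 10.89, 10.51 and 10.85 at 0 h (-1.30 ± 0.16, adjusted p = 6.42e-06). GAPC2, a cytosolic glyceraldehyde phosphate dehydrogenase, had 9.35, 9.64 and 9.55 at 12 h, against 10.61, 10.32 and 10.28 at 0 h (-0.89 ± 0.19, adjusted p = 0.00184). Both enzymes were lower at 12 h in each time-course, by less than 3-fold.

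Of 11 genes of leucine, lysine and branched-chain breakdown 5 fell and 0 rose (0 up and 3 down without the pairing, time-course B, 12 h A or 0 h A). MCCB, a subunit of the carboxylase of leucine breakdown, had 3.24, 2.72 and 2.08 at 12 h, against 4.27, 3.83 and 3.68 at 0 h (-1.25 ± 0.30, adjusted p = 0.00429). LKR, of lysine breakdown, fell by 0.91 ± 0.19 (adjusted p = 0.00113). Among 11 starch and sucrose genes 2 rose and 4 fell (0 up and 2 down without time-course B, 0 up and 3 down without 12 h B or 12 h C, 0 up and 4 down without 0 h A or 0 h C, 1 up and 3 down without the pairing or with the covariate, 1 up and 4 down without 12 h A). ATSPS4F, a sucrose phosphate synthase, had 0.24, 0.06 and 0.00 at 12 h, against 2.26, 4.28 and 3.67 at 0 h (-3.30 ± 0.30, adjusted p = 8.41e-08). DPE1, which processes short glucans in plastids, fell by 1.39 ± 0.15 (adjusted p = 1.39e-06). The sucrose phosphate synthase gene was at or near the floor on all 3 arrays at 12 h, so its fall is a lower limit. Of 15 genes of fatty acid, sphingolipid and wax synthesis 4 fell and 1 rose. CCT1, which activates choline for membrane lipids, fell by 1.63 ± 0.34 (adjusted p = 0.0011). LCB2, of the first step of sphingolipids, fell by 1.19 ± 0.29 (adjusted p = 0.00499). AAPT2, which completes phospholipids, rose by 1.21 ± 0.24 (adjusted p = 8.34e-04). In the phenylpropanoid and lignin group 1 of 13 rose and 1 fell (0 up and 0 down without time-course B, 1 up and 0 down without 12 h A or 12 h B or with the covariate, 1 up and 3 down without 0 h A). The riser was HCT, the acyltransferase on the way to lignin monomers, with 5.51, 6.93 and 7.30 at 12 h, against 5.14, 4.21 and 5.70 at 0 h (1.56 ± 0.36, adjusted p = 0.00299, but 0.162 without time-course B). Of 8 flavonoid genes 0 passed the test with limma, 0 had an unadjusted p under 0.05, and 0 passed in each of the 13 alternatives run on this group. But 7 of these 8 genes were dim, as were 12 of the 13 phenylpropanoid and lignin genes, so changes in them could hardly be seen.

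Of 25 cation transporters and glutamate receptors 1 rose and 5 fell. OCT5 rose by 6.77 ± 0.24 and OCT1 fell by 6.40 ± 0.82 (adjusted p = 8.59e-14 and 7.25e-06), opposite changes within 1 family. MTP11, a manganese transporter of the secretory route, had 5.12, 3.99 and 4.16 at 12 h, against 6.04, 5.55 and 6.06 at 0 h (-1.46 ± 0.26, adjusted p = 2.44e-04). Of 12 nitrate and peptide transporters 1 rose and 2 fell (0 up and 1 down without 0 h B or 0 h C, 0 up and 2 down without the pairing, 12 h B or 12 h C or with the covariate, 0 up and 3 down without 0 h A, 1 up and 1 down without time-course B or 12 h A). GTR1, which moves glucosinolates, had 2.25, 2.46 and 2.33 at 12 h, against 3.65, 3.82 and 4.24 at 0 h (-1.56 ± 0.26, adjusted p = 1.51e-04). Of 21 sugar transporters 1 rose and 0 fell (0 up and 0 down without time-course B, 12 h B, 12 h C or 0 h B, 0 up and 1 down without 0 h A or with the covariate), and the gene that rose did not have 1 sign in A, B and C.

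Of 31 nuclear genes of photosynthesis 8 fell (25.8%, against 10.3% of all genes) and 2 rose (6.45%), at a median of -0.16 (1 up and 6 down without time-course B, 1 up and 7 down without 12 h B or 12 h C, 1 up and 8 down without 0 h B, 1 up and 9 down with the covariate). CaS, a calcium-sensing thylakoid protein, had 0.53, 0.48 and 0.48 at 12 h, against 2.88, 3.83 and 3.5 at 0 h (-2.91 ± 0.17, adjusted p = 1.51e-10). LPA2, which assembles photosystem II, had 2.90, 2.26 and 2.05 at 12 h, against 4.1, 3.54 and 3.70 at 0 h (-1.38 ± 0.21, adjusted p = 7.42e-05). Within the family that bends thylakoids CURT1C fell by 0.95 ± 0.14 while CURT1D had 6.66, 5.96 and 5.62 at 12 h, against 5.01, 4.19 and 3.91 at 0 h and rose by 1.71 ± 0.19 (adjusted p = 4.38e-05 and 1.07e-06). The family therefore held changes in both directions. Of 14 tetrapyrrole enzymes, which make chlorophyll and heme, 2 fell and 0 rose (0 up and 1 down without time-course B, 1 up and 2 down without 0 h A). CHLM fell by 1.30 ± 0.30 (adjusted p = 0.00287). Of 69 plastid-encoded genes 2 rose and 4 fell, 2.90% and 5.80% (0 up and 0 down without time-course B, 1 up and 1 down without the pairing or 12 h B or with the covariate, 1 up and 3 down without 0 h B, 1 up and 9 down without 0 h A, 2 up and 2 down without 12 h C or 0 h C, 4 up and 7 down without 12 h A). The 989 annotated pseudogenes had 16 up and 5 down (8 up and 5 down without the pairing, 9 up and 5 down without 0 h B, 11 up and 3 down without time-course B or 12 h C, 13 up and 10 down without 0 h A), 1.62% and 0.506%, with 949 of them dim.

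Several genes with the largest changes carry a locus name alone in the files, and no role is given for them. AT3G26470 had 7.09, 8.22 and 8.09 at 12 h, against 0.25, 0.42 and 0.33 at 0 h (7.46 ± 0.20, adjusted p = 1.54e-15). AT1G14130 had 8.84, 8.77 and 8.68 at 12 h, against 2.28, 1.94 and 2.69 at 0 h (6.46 ± 0.23, adjusted p = 8.74e-14). AT5G16980 had 7.62, 6.98 and 6.85 at 12 h, against 0.79, 0.96 and 1.05 at 0 h (6.21 ± 0.31, adjusted p = 1.67e-11). Each was below 3 log2 units at 0 h and above 6 at 12 h. Among those that fell, AT2G16270 had 0.57, 0.69 and 0.49 at 12 h, against 5.22, 5.32 and 4.14 at 0 h (-4.31 ± 0.32, adjusted p = 4.73e-09). AT2G42690 had 0.63, 0.88 and 0.62 at 12 h, against 5.96, 5.18 and 5.57 at 0 h (-4.86 ± 0.46, adjusted p = 1.55e-07). AT1G19380 had 3.42, 2.04 and 2.41 at 12 h, against 6.32, 6.90 and 7.10 at 0 h (-4.15 ± 0.33, adjusted p = 1.46e-08). In the first 2 of these the 12 h signals lay under 1 log2 unit on all arrays.

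The 12 h signals were also set against the mean of the 7 later times, 24 h to 96 h, in the same fit. That contrast uses the same 12 h arrays, so its values stand beside those against 0 h and no agreement between these contrasts is counted. In it 5712 probe sets differed (25.1%), and without the pairing 4652. AER averaged 9.29 at 12 h, 4.95 at the later times and 4.78 at 0 h, a difference of 4.34 ± 0.26 from the later mean (adjusted p = 1.18e-10). IAGLU averaged 6.80, 1.00 and 0.85 (5.80 ± 0.13, adjusted p = 2.51e-17), in that order of times. CRT1b averaged 5.39 at 12 h, 7.57 later and 7.55 at 0 h (-2.18 ± 0.14, adjusted p = 4.64e-10). At 12 h these 3 genes thus stood apart from both the later mean and 0 h. NDB2 averaged 6.79 at 12 h, 4.82 later and 3.00 at 0 h (1.97 ± 0.20, adjusted p = 1.85e-07), so that its later mean lay between the other two. ATSPS4F averaged 0.10 at 12 h, 0.48 later and 3.40 at 0 h, and its 12 h level did not differ detectably from the later mean (-0.38 ± 0.22, adjusted p = 0.265).

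**Figure D5:**
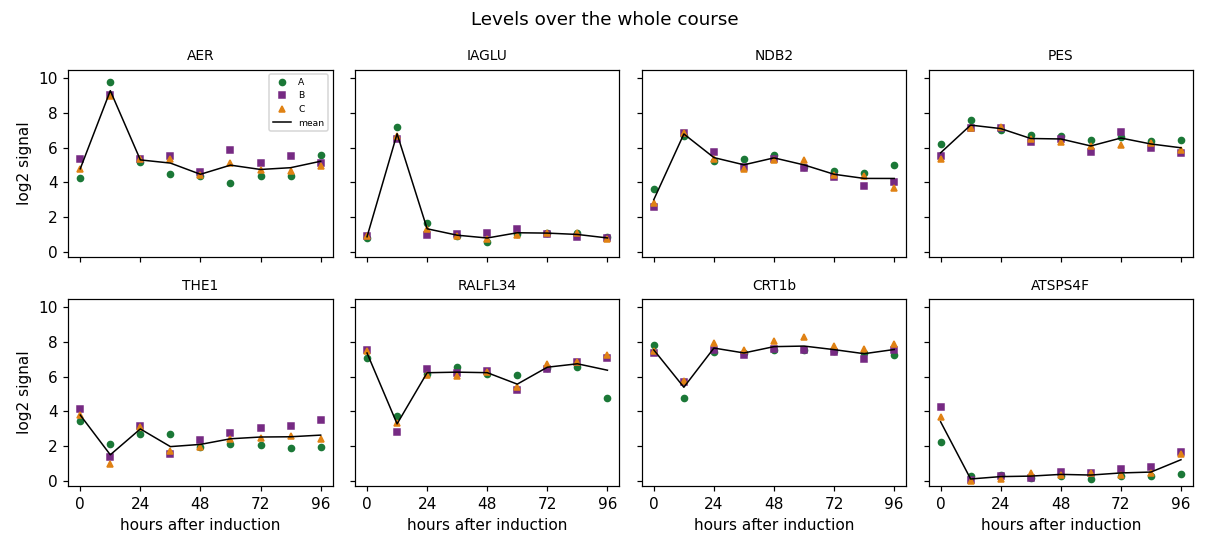
Log2 signal of 8 genes at all 9 times, 0 h to 96 h after induction (horizontal axis), with 1 point per time-course and a line through the means. AER and IAGLU peak at 12 h, CRT1b and RALFL34 dip there, NDB2 and PES decline slowly from their 12 h level, THE1 returns in part, and ATSPS4F stays near the floor until it rises a little at 96 h.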

How the data were processed

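The deposited values are the authors' log2 signals of Affymetrix arrays after RMA, per the submitters' processing notes. RMA commonly corrects background, normalizes between arrays and summarises each probe set; how RMA was set is not given in the sources used, and the base of the logarithm was inferred from the range of the values. Of 22810 probe sets, 64 controls were left out, as were 3 that lack a value. A gene with several probe sets was represented by the brightest over the 27 arrays, and 13436 probe sets matched a reference gene table that served for names alone. All 27 arrays were fitted with limma 3.58.1 in R 4.3.3, with 1 mean per time and the time-course letter as a block, and Benjamini-Hochberg adjustment over 22743 probe sets. The fit was tried on data simulated from the same model with independent noise. Those data had no floor and no lost 5′ ends, so the trial cannot show how the fit copes with either. Errors after ± are standard errors from that fit, on the log2 scale.

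The design text speaks of 3 independent time-courses and the titles give each array a letter, which was taken as its time-course. The deviations of the 12 h and 0 h arrays of a letter from their time means correlated at 0.166 (A), 0.229 (B) and 0.305 (C). That the letters stand for separate cultures is not stated beyond this. The p-values measure the spread that remains over all 27 arrays of these time-courses after time means and steady differences between letters are removed. The 64 gene groups were drawn from gene names, and the comparison, groups and named genes were chosen with earlier results of these data known. The rule for names gives the 15 largest rises, the 15 largest falls and up to 6 changed members of each group by size, all with 1 sign in A, B and C, plus the largest member of a group with none, all members of groups of 1 or 2, and the markers. Of the 148 genes named with values, each had 1 sign in A, B and C, and 1 lies outside the rule. Promoter and protein sequences were not analysed here.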

Additional observations from a re-analysis of the deposited data

How the results depend on the processing

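The fit pairs arrays through the replicate block of the time-course letter. With no replicate block the count of changed probe sets was 3900 (1929 up, 1971 down), and with the letter as a random block 4572. With the 6 arrays of 12 h and 0 h alone, which leaves fewer arrays to estimate the spread, 2531 changed with the block (1223 up, 1308 down) and 2243 without it (1046 up, 1197 down). Leaving out the 9 arrays of time-course B gave 3266 (1486 up, 1780 down), and asking for at least a 2-fold difference gave 2770 (1406 up, 1364 down). Leaving out 1 of the 6 arrays at a time gave 3957 to 4946. Median centring, quantile normalization, the GAPDH covariate and array weights gave counts of 4899 to 5969. With fewer probe sets tested, 4225 of 9591 changed under the filter on dim values and 4983 of 20388 under the filter on floored values. Against the later times 4652 changed with no replicate block, 4093 without time-course B and 5688 to 5753 under other scaling. The rule for names asked mostly for changed genes with large differences and 1 sign in A, B and C, and the alternatives reuse the same arrays. That these genes kept sign and call follows in part from that choice. Of the 148 named genes 0 reversed under any alternative, 113 kept the call under all of them apart from the fold minimum, and 1, NRPD7, lost it when single arrays were left out. Without time-course B 9 lost it, NRPD7 and the 8 whose adjusted p is given beside their values. With the 6 arrays alone and the block 25 lost it, at an adjusted p of 0.0569 to 0.179: ATHSP22.0, AtRZ-1c, BZIP60, CHLM, CML42, CYTC-2, GID1A, GSTL3, HCT, HON4, HSA32, HTB2, IAA18, IAA30, IQD22, IQD30, RALFL33, RRP41, SKP2A, SKU5, SPT, TET10, WLIM2a, bZIP44 and scpl35. Without the block 27 did, at 0.0524 to 0.244: ACLB-1, FER, LKR, MAP1A, MCCB, NRPD7, PRH75, TON1B and TRM19, and all of those 25 apart from AtRZ-1c, CYTC-2, HON4, IQD22, RRP41, SPT and TET10. The cause was not tested. Of the 128 group counts, up or down, 108 stayed within 1.5 times of the value given with no replicate block, 125 with median centring, 122 with quantile normalization, 103 with the GAPDH covariate, 88 without time-course B, 82 with the 2-fold minimum, and 97 to 112 with 1 array left out. All of these on groups, apart from the counts with no block, with the fold minimum and over all probe sets of a gene (127), were chosen after seeing the data. With 3 arrays at each time, the number of arrays and the floor at 0 limit the precision.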
